A study of Mus musculus with 8 samples.

Results

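The genes described are 10 of the 23282 genes in the count table: Nfe2l2, Keap1, Txn1, Txnrd1, Srxn1, Slc7a11, Gclc, Gclm, Gsr and Nqo1. They were picked by name as the NRF2 factor, its repressor and genes of thioredoxin and glutathione metabolism, and each matched 1 row of the table through its Entrez number. The set was proposed with the genotype values of these data in view. Its genotype differences are therefore given as a description and support nothing by themselves.

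The libraries came from hearts of FVB/N males, all 4 months old: 4 were wild-type and 4 AE3-null. AE3 is the product of Slc4a3 and exchanges chloride for bicarbonate across the membrane of heart muscle cells. How the null allele was made is not given in the labels, which name no other allele and no treatment for either group. The labels do not tie libraries to animals beyond the statement of 4 mice per genotype, so every test here rests on the spread among libraries, which may be technical.

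NRF2, the product of Nfe2l2, is a transcription factor that the adaptor KEAP1 hands to a CUL3 ubiquitin ligase for destruction. Oxidants and electrophiles modify KEAP1 cysteines, NRF2 then accumulates, pairs with a small MAF protein and binds antioxidant response elements in front of its targets. The targets feed a pair of thiol systems: thioredoxin, kept reduced by thioredoxin reductase, and glutathione, made from cysteine, glutamate and glycine and kept reduced by glutathione reductase. In the heart these systems remove the peroxides that mitochondrial respiration produces. NRF2 activity is controlled mainly through the protein, so the level of Nfe2l2 mRNA is not a measure of it.

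The letters TGACNNNGC, the core of the antioxidant response element, were searched on both strands of RefSeq promoter windows (GRCm38.p6, 250 bases before to 50 after an annotated start; the counts themselves were made on mm9). The table held windows for 8 of the 10 genes. Gclc and Gsr had none. A match was found in 4 of the 10 windows, 1 each for Txnrd1, Srxn1, Gclm and Nfe2l2, and in 12.39% of all 32851 windows. None was found in the windows of Keap1, Txn1, Nqo1 and Slc7a11 or in the other 2 windows of Txnrd1. Of the genes with a match, 3 were called lower in AE3-null hearts, described further on, and Nfe2l2 was not called. The set was proposed with those values known, and a link between matches and calls was not tested. All 4 matches are shown. Each is printed 5′ to 3′ on the strand of the match, with the matched letters in capitals:
Txnrd1, chr10:82859106-82859130, minus strand: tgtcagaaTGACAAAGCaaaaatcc
Srxn1, chr2:152105544-152105568, minus strand: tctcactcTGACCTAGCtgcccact
Gclm, chr3:122245415-122245439, minus strand: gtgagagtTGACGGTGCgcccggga
Nfe2l2, chr2:75704887-75704911, minus strand: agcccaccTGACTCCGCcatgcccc

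The wider context of the Txnrd1 and Gclm matches, the 250 bases before the annotated start on the gene's own strand, is as follows, again with the match in capitals.
Txnrd1, chr10:82858956-82859205, plus strand: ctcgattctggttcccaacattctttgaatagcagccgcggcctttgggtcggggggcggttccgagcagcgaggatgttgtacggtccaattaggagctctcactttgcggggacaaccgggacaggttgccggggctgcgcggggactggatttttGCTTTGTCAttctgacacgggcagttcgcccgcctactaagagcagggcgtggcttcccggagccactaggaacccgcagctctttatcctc
Gclm, chr3:122245307-122245556, plus strand: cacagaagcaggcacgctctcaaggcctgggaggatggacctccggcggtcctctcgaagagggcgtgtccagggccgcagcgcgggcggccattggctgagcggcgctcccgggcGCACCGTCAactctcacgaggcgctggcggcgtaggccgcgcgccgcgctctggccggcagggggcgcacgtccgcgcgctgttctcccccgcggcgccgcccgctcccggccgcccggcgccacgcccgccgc
A match describes the letters only. It was not tested as a binding site, and a window without one says nothing about sites elsewhere in the gene.

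The libraries held 9133628 to 27078351 counts, and each matched its label. Slc4a3 was at 383.3 ± 4.60 CPM in wild-type and 32.9 ± 1.26 CPM in AE3-null hearts (SD, n = 4; CPM are counts relative to the TMM-scaled library total). Heart muscle markers summed to 83084 to 91257 CPM in wild-type and 83234 to 89571 CPM in AE3-null libraries. Of the 7 markers, edgeR called 2 higher in AE3-null hearts, Tnnt2 (log2 fold change 0.12) and Pln (0.14). The call of Pln stood with any single library left out, and that of Tnnt2 was lost in most such fits. Along the second principal component of log2 CPM wild-type replicate 3 lay apart, at -19.3 against -1.09 to 8.26 in the rest, and values that turn on it are also given without it. Over all 14136 tested genes edgeR called 915 at an adjusted p under 0.05, 447 higher and 468 lower in AE3-null hearts (528 and 361 with scaling by total counts only). Leaving out wild-type replicate 3 gave 1727 calls and wild-type replicate 4 gave 431. Without AE3-null replicate 1 there were 581 calls, without AE3-null replicate 3 there were 569, and without AE3-null replicate 4 there were 407. The genes called lower numbered 300 without wild-type replicate 2.

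Of the 10 genes, Txnrd1, Srxn1 and Gclm were called lower in AE3-null hearts and none was called higher. Over all tested genes 3.31% were called lower, 3.16% higher and 6.47% in either direction. The groups did not overlap for these 3 genes and Gsr, against 12.2% of all tested genes. Nothing is read from these shares, because the set was proposed with the values known. The median log2 fold change of the 10 genes was -0.08, beside -0.0018 for all tested genes, and 2 of the 10 had a positive value. All 10 passed the filter on low counts. In tissue RNA, fewer cells of a type and less RNA per cell cannot be told apart.

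**Figure D1:**
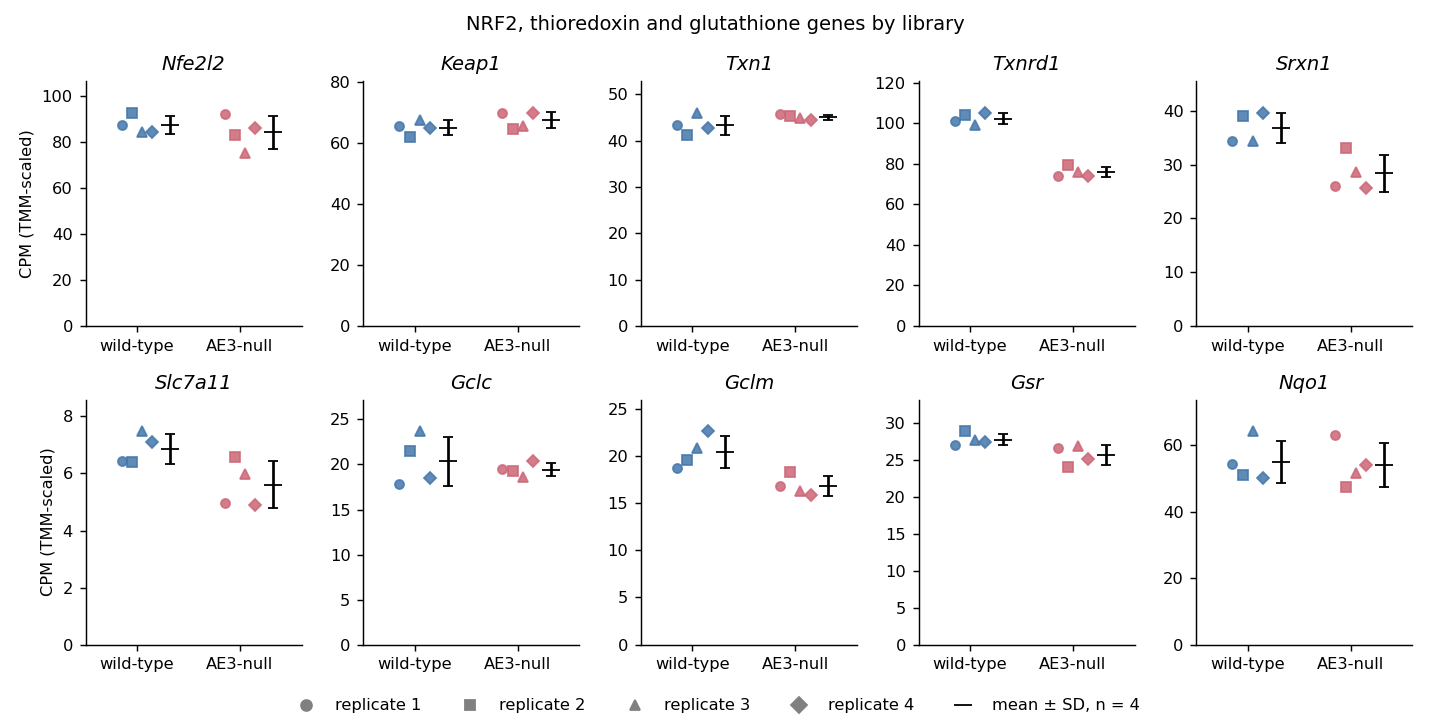
CPM of each of the 10 genes (y axis, from 0, 1 panel per gene) in the 4 wild-type (blue) and 4 AE3-null (red) libraries; symbols mark the replicate number and black bars the mean ± SD. Txnrd1 lay at 98.9 to 105 CPM in wild-type and 73.9 to 79.3 CPM in AE3-null libraries, and the Nqo1 ranges overlapped.

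The sensor and the factor had similar levels in both genotypes. Nfe2l2 was at 87.6, 92.7, 84.3 and 84.6 CPM in wild-type replicates 1 to 4 and at 92.4, 83.0, 75.4 and 86.1 CPM in AE3-null replicates 1 to 4. AE3-null replicate 3 was the lowest of the 8 and AE3-null replicate 1 the second highest, so the groups overlapped. The log2 fold change was -0.05 (SE 0.056), with an interval of 2 SE from -0.16 to 0.06, and it was 0.0036 without AE3-null replicate 3. Keap1, the cysteine-rich repressor, was at 65.6, 61.9, 67.6 and 64.7 CPM in wild-type and 69.7, 64.6, 65.6 and 69.6 CPM in AE3-null libraries. Its groups overlapped as well, at a log2 fold change of 0.06 (SE 0.045; interval -0.03 to 0.15). In GENCODE M21, 11.34% of the merged Keap1 exons overlap the antisense gene Gm16754 on the other strand. The strand setting of the counting is not given in the sources used here, so reads of those bases cannot be assigned with certainty.

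In the thioredoxin branch, Txnrd1 and Srxn1 were called lower and Txn1 was not called. Txnrd1 encodes the cytosolic selenoenzyme that passes electrons from NADPH to thioredoxin. It was at 101, 104, 98.9 and 105.0 CPM in wild-type replicates 1 to 4 and at 74.0, 79.3, 76.0 and 73.9 CPM in AE3-null replicates 1 to 4. Every AE3-null library was below every wild-type library, and the gap between the groups was wider than the range within either. AE3-null hearts had 74.2% of the wild-type mean (102 ± 2.82 against 75.8 ± 2.53 CPM, SD, n = 4), a log2 fold change of -0.43 (SE 0.040).

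Txn1, the cytosolic thioredoxin that this reductase serves, was at 43.3, 41.1, 46.0 and 42.8 CPM in wild-type and 45.7, 45.2, 44.8 and 44.5 CPM in AE3-null libraries. The AE3-null libraries lay inside the wild-type range, with a log2 fold change of 0.06 (SE 0.048; interval -0.04 to 0.15). The annotation names a pseudogene, Txn-ps1, and reads shared with it cannot be assigned with certainty. The CPM of Txnrd1 over that of Txn1, taken within each library and not per length, averaged 2.37 ± 0.164 in wild-type and 1.68 ± 0.0565 in AE3-null hearts (SD, n = 4), without overlap.

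Srxn1 encodes sulfiredoxin, which rescues peroxiredoxins whose catalytic cysteine has been over-oxidized. It was at 34.4, 39.0, 34.4 and 39.6 CPM in wild-type and 26.1, 33.1, 28.6 and 25.7 CPM in AE3-null libraries. The groups did not overlap, but AE3-null replicate 2, the shallowest library with 307 Srxn1 counts, came within 1.34 CPM of the lowest wild-type value. The mean was 77.0% of the wild-type mean, a log2 fold change of -0.40 (SE 0.077). It was -0.46 without AE3-null replicate 2 and -0.35 without AE3-null replicate 4, the ends of the range over single libraries left out.

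In the supply of glutathione, Gclm was called lower and Gclc and Slc7a11 were not called; the difference between these genes was not tested. Glutamate-cysteine ligase, the rate-limiting enzyme of glutathione synthesis, consists of the catalytic subunit GCLC and the modifier GCLM, which raises its affinity for glutamate and lessens feedback inhibition by glutathione. Gclm was at 18.8, 19.6, 20.8 and 22.6 CPM in wild-type and 16.8, 18.3, 16.3 and 15.9 CPM in AE3-null libraries. The groups did not overlap, though wild-type replicate 1 and AE3-null replicate 2 were close. The mean was 82.2% of the wild-type mean, a log2 fold change of -0.30 (SE 0.073). This call did not stand without wild-type replicate 4 (log2 -0.24) or without AE3-null replicate 1, 3 or 4.

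Gclc was at 17.8, 21.5, 23.7 and 18.4 CPM in wild-type and 19.4, 19.3, 18.6 and 20.4 CPM in AE3-null libraries, so the AE3-null values lay inside a wide wild-type range. The log2 fold change was -0.06 (SE 0.083; interval -0.22 to 0.11), and 0.02 without wild-type replicate 3, its highest library. The within-library ratio of Gclm to Gclc averaged 1.02 ± 0.159 in wild-type and 0.866 ± 0.0708 in AE3-null hearts (SD, n = 4), with overlapping ranges.

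Slc7a11 encodes xCT, the cystine/glutamate exchanger that brings in the cysteine for glutathione, and was read at low depth, 61 to 133 counts per library. It was at 6.42, 6.40, 7.47 and 7.11 CPM in wild-type and 4.97, 6.57, 5.997 and 4.90 CPM in AE3-null libraries. AE3-null replicate 2 was above 2 wild-type libraries. The mean was 81.8% of the wild-type mean, a log2 fold change of -0.33 (SE 0.115), which edgeR did not call in the fit over all genes or under any of 17 alternatives.

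Gsr encodes glutathione reductase, which regenerates glutathione from its disulfide. It was at 27.0, 28.8, 27.6 and 27.4 CPM in wild-type and 26.6, 24.0, 26.9 and 25.1 CPM in AE3-null libraries. The groups did not overlap, but the gap between them was only 0.168 CPM, and the log2 fold change of -0.10 (SE 0.054; interval -0.21 to 0.0049) was not called.

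Nqo1, a quinone reductase and a standard readout of NRF2 activity, was at 54.3, 51.0, 64.1 and 50.3 CPM in wild-type and 63.1, 47.4, 51.6 and 54.1 CPM in AE3-null libraries. Both groups spanned nearly the same range. The log2 fold change was -0.01 (SE 0.100; interval -0.21 to 0.19), and 0.07 without wild-type replicate 3, which held the highest value.

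**Figure D2:**
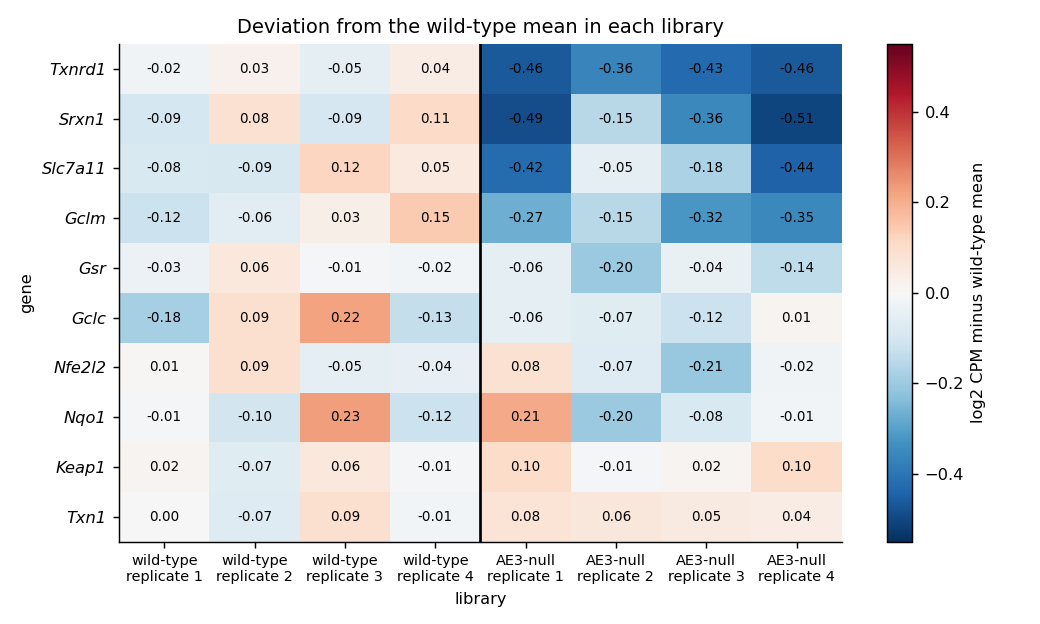
log2 CPM of each gene (rows, ordered by log2 fold change) in each library (columns) minus the wild-type mean of that gene; blue is lower and red higher, and the vertical line divides the genotypes. Txnrd1, Srxn1, Gclm, Slc7a11 and Gsr are below the wild-type mean in all 4 AE3-null libraries, with Srxn1 from -0.51 to -0.15, and Txn1 is above it in all 4, by 0.04 to 0.08.

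Txnrd1, Srxn1 and Gclm shared the library of their lowest value, and Slc7a11 shared it too. AE3-null replicate 4 had the lowest level of all 4, at -0.46, -0.51, -0.35 and -0.44 from the wild-type means. AE3-null replicate 1 was nearly as low for Txnrd1, Srxn1 and Slc7a11, at -0.46, -0.49 and -0.42, and AE3-null replicate 3 was next for Gclm, at -0.32. Nothing is read from the order of such close values. AE3-null replicate 2 had the highest Txnrd1, Srxn1, Gclm and Slc7a11 of the AE3-null group, with deviations of -0.36, -0.15, -0.15 and -0.05, and the lowest Nqo1 and Gsr of that group, at -0.20 each. In wild-type replicate 3 Gclc and Nqo1 were each highest of the group, at 0.22 and 0.23, whereas Txnrd1 was lowest, at -0.05.

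Profiles over the 8 libraries were compared as z-scores of log2 CPM among 10550 other protein-coding genes whose mean reached 5 CPM. The measure of likeness was the root-mean-square difference, in SD units. For Txnrd1, the gene with the largest fold change of the 10, the closest were Egln3 (0.0967), a hypoxia-inducible prolyl hydroxylase, Nbas (0.129) and Slco3a1 (0.148). These profiles were compared with the genotype difference left in. Egln3 itself was at 242 ± 11.6 CPM in wild-type and 126 ± 6.01 CPM in AE3-null hearts (SD, n = 4). With each genotype's mean subtracted, the closest to Txnrd1 were Tpp2 (0.0997), Nfil3 (0.170) and, as the third, Srxn1 (0.210). Gclm ranked 1390 and Nqo1 10442. The spread left by this step was small. The SD of Txnrd1 CPM was 2.76% of the wild-type mean and 3.33% of the AE3-null mean, at 737 to 2009 counts. The part of counting noise in this spread was not tested, nor was the closeness reached by chance among 10550 candidates. Nothing is read from the rank of Srxn1. Nfe2l2 was closest to Aifm1 (0.243), Fam117b (0.263) and Washc3 (0.292), and to Aifm1 (0.177), Washc3 (0.229) and Tra2b (0.243) with the genotype means subtracted. Among the other 9 genes Nqo1 was the nearest to Nfe2l2, at rank 2488 (2620 with means subtracted).

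Levels of different genes were compared per kilobase of merged exons in GENCODE M21 basic, an annotation that is not stated to be the one used for counting. In wild-type hearts Txn1 was highest at 41.2 ± 1.90 CPM per kb, followed by Nqo1 at 35.4 ± 4.11 and Nfe2l2 at 35.3 ± 1.58 (SD, n = 4), and the latter pair differed by less than their spread. Txnrd1 followed at 25.1 ± 0.692, Keap1 at 14.4 ± 0.524, Srxn1 at 13.1 ± 1.01 and Gsr at 10.4 ± 0.289 CPM per kb. Gclc, Gclm and Slc7a11 were lowest, at 5.95 ± 0.802, 3.66 ± 0.301 and 0.696 ± 0.054 CPM per kb. The order was the same in AE3-null hearts, where Txnrd1 was at 18.6 ± 0.620 CPM per kb. There Srxn1 (10.1 ± 1.20) and Gsr (9.60 ± 0.506) differed by less than their spread.

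The wider pathway was described with 8 lists of 114 further genes, of which 111 were tested. In AE3-null hearts 12 of these fell and 2 rose by edgeR's quasi-likelihood test, 12.6% of those tested against 6.47% of all tested genes. The lists, too, were chosen with earlier results of these data known, so nothing is read from these shares. Their median log2 fold change was -0.03, beside -0.0018 for all genes. With single libraries left out the number called was 9 without wild-type replicate 1, 2 or AE3-null replicate 2 or 4, 8 without wild-type replicate 4 or AE3-null replicate 1, 12 without AE3-null replicate 3 and 19 (13 lower, 6 higher) without wild-type replicate 3. With all libraries, no list other than that of the ATF4 branch had a median beyond 0.1 in size. Without AE3-null replicate 3 the median of the superoxide and hydrogen peroxide genes was -0.12.

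Among 14 partners, repressors and degraders of NRF2, 3 were called lower and none higher, and the median log2 fold change was -0.03. Sqstm1 encodes p62, an autophagy receptor that binds KEAP1 and is itself an NRF2 target. It was at 479, 469, 481 and 529 CPM in wild-type and 427, 393, 399 and 407 CPM in AE3-null libraries. It fell in AE3-null hearts with no overlap of the groups (log2 -0.27, SE 0.041, edgeR adjusted p 0.00111). In GENCODE M21, 20.55% of its merged exons overlap Mrnip on the opposite strand.

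Mafg, a small MAF partner of NRF2, was at 26.9, 28.2, 26.3 and 29.6 CPM in wild-type and 21.7, 22.7, 22.0 and 24.0 CPM in AE3-null libraries. It fell without overlap (log2 -0.30, SE 0.059, edgeR adjusted p 0.00628). The related Maff fell by 0.55 on the log2 scale (SE 0.130, edgeR adjusted p 0.0240), with means of 12.8 ± 2.44 CPM in wild-type and 8.66 ± 0.922 CPM in AE3-null hearts (SD, n = 4). Wild-type replicate 3, at 9.31 CPM, lay inside the AE3-null range, and the call of Maff was lost with any of 6 libraries left out (adjusted p up to 0.0856), though not without wild-type replicate 3. Cul3, the scaffold of the ligase, and Bach1, a repressor that competes for the same elements, were not called (log2 -0.02, SE 0.035, and -0.06, SE 0.065); these and the Mafk value of -0.14 were picked out after their values were seen. A promoter window of each of the 3 MAF genes held the core letters, the called Mafg and Maff as well as Mafk, which was not called. They are shown for comparison with those above:
Mafg, chr11:120633753-120633777, plus strand: cgccgggtTGACCGTGCtcctgcag
Maff, chr15:79346501-79346525, plus strand: gcgtctcaTGACTCTGCcactggaa
Mafk, chr5:139791515-139791539, minus strand: cccagtacTGACACCGCttccggga
Of the 133 windows of the further pathway genes, 24 held a match, or 18.05%. These windows belonged to 21 of the 99 genes with a window. Among the 21, Mafg and Maff were the only genes called, beside 12.6% of the 111 tested pathway genes and 6.47% of all tested genes. Nothing is read from this count, and a link between matches and calls was not tested. No match was found for the remaining called pathway genes.

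None of 17 further genes of the thioredoxin system, the peroxiredoxins and the methionine sulfoxide reductases was called by edgeR, with a median of -0.02 and values between -0.25 and 0.15. The peroxiredoxin Prdx6 (log2 -0.11, SE 0.035, adjusted p 0.0750) and the selenoprotein Msrb1 (log2 0.12, SE 0.038, adjusted p 0.0810) had the smallest p-values. Under the other settings Msrb1 was called with scaling by total counts only, and Prdx6 under none. Without wild-type replicate 3, Txnrd3, a thioredoxin reductase, was called higher (log2 0.24, edgeR adjusted p 0.0167). At an unadjusted p under 0.05, 3 of the 17 differed, beside 2973 of all 14136 tested genes. DESeq2 and limma voom called 0 of the 17.

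Among 16 tested genes of glutathione synthesis and turnover 3 fell, none was called higher, and the median was 0.03. Without wild-type replicate 3, the same 3 were called lower and Oplah, Glrx and Glrx5 were called higher, with log2 fold changes of 0.17, 0.21 and 0.13 (edgeR adjusted p 0.0110, 0.0315 and 0.0490). Chac1, which degrades glutathione and is a target of ATF4, was at 6.24, 7.22, 5.24 and 4.49 CPM in wild-type and 3.03, 1.72, 1.68 and 2.39 CPM in AE3-null libraries, and fell by 1.32 on the log2 scale (SE 0.191, edgeR adjusted p 0.000985). Slc25a39, which carries glutathione into mitochondria, had means of 145 ± 2.46 CPM and 128 ± 3.41 CPM (SD, n = 4) and fell by 0.18 (SE 0.035, edgeR adjusted p 0.00595). Slc1a1, a glutamate and cysteine transporter, fell by 0.62 (SE 0.165, edgeR adjusted p 0.0366), a call lost in 9 of 17 alternatives, and 32% of its merged exons overlap 4430402I18Rik on the opposite strand.

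Of 25 tested glutathione peroxidases and transferases 3 fell and 1 rose, with a median of -0.03. Gsta2 and Gsta1, near-identical alpha-class transferases whose reads the counting could have split between them, fell by 1.32 (SE 0.207) and 1.17 (SE 0.199) from low levels of 1.90 ± 0.153 and 2.38 ± 0.152 CPM (SD, n = 4; edgeR adjusted p 0.00126 and 0.00230). Gstm2, of the mu class, fell by 0.18 (edgeR adjusted p 0.0198), and Gstt1, of the theta class, rose by 0.28 (edgeR adjusted p 0.0374). The calls of Gstm2 and Gstt1 were lost in 4 and 7 of 17 alternatives.

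Other NRF2 targets numbered 14, of which 2 fell and none was called higher; the median was -0.01. Aox1, an aldehyde oxidase, was at 54.2, 57.4, 59.0 and 59.1 CPM in wild-type and 47.9, 46.8, 47.8 and 46.2 CPM in AE3-null libraries and fell without overlap (log2 -0.28, SE 0.045, edgeR adjusted p 0.00156). Ftl1, the ferritin light chain, fell by 0.26 (SE 0.052, edgeR adjusted p 0.00827); the annotation names the copies Ftl1-ps1 and Ftl1-ps2, and 47.93% of its merged exons overlap other genes. Hmox1, the heme oxygenase and a target of NRF2 and BACH1, had a log2 fold change of -0.28 (SE 0.118, edgeR adjusted p 0.186) and was picked out after its value was seen.

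In the remaining lists, Nadk2, the mitochondrial NAD kinase, rose by 0.17 (SE 0.047, edgeR adjusted p 0.0415) as the only called gene of 10 for NADPH supply, and its call was lost in 9 of 17 alternatives. None of 7 superoxide and hydrogen peroxide genes was called by edgeR; Sod3, the extracellular superoxide dismutase, had a log2 fold change of -0.19 (edgeR adjusted p 0.0510) and Cybb, the phagocyte oxidase subunit, 0.34 (edgeR adjusted p 0.0841). At an unadjusted p under 0.05, 4 of the 7 differed, beside 2973 of all 14136 tested genes. Sod3 was called in 4 of 17 alternatives and Cybb by DESeq2, and limma voom called 0. Of 8 genes of the ATF4 branch, which also controls Slc7a11 and Chac1, only Atf4 itself was called. It fell by 0.23 (edgeR adjusted p 0.0415), a call lost in 10 of 17 alternatives. Wild-type replicate 3, at 61.4 CPM, lay inside the AE3-null range of Atf4, 58.1 to 63.8 CPM. The median of that list was -0.26, beside -0.0018 for all tested genes.

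**Figure D3:**
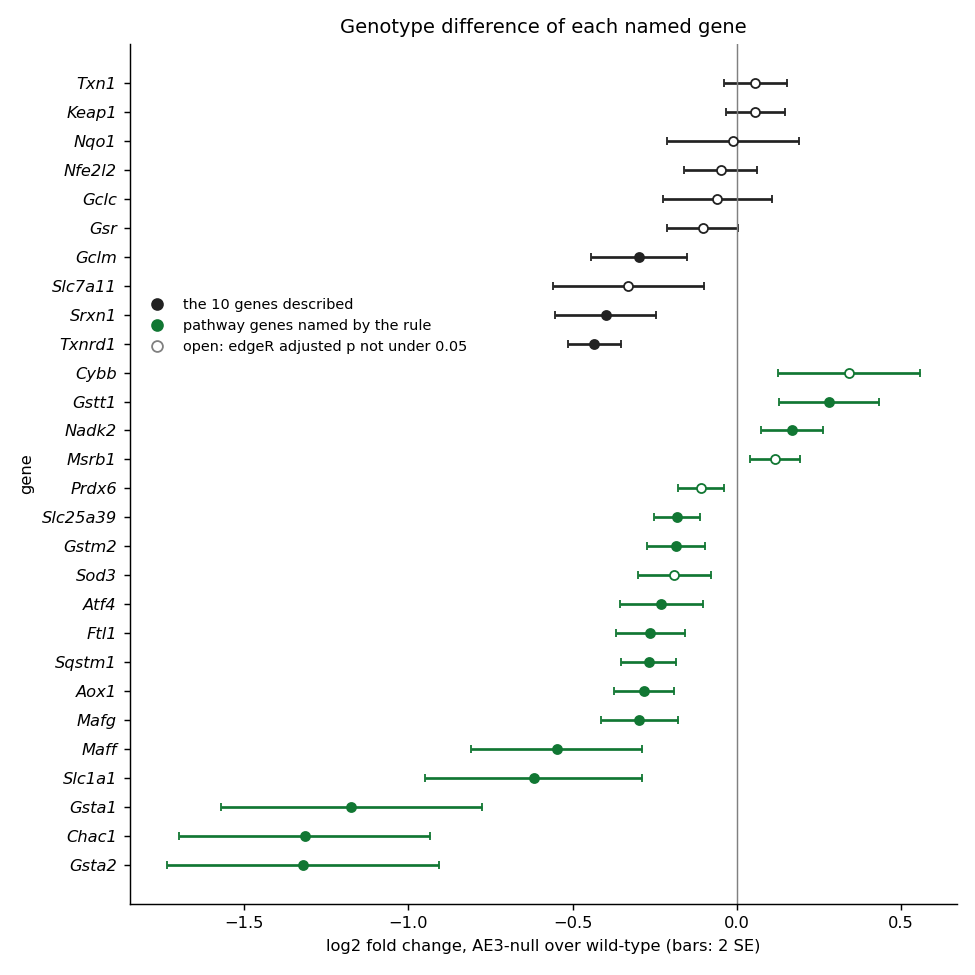
log2 fold change (x axis, AE3-null over wild-type, bars of 2 SE) of the 10 genes (black) and of the pathway genes named by the rule (green); open circles did not reach an edgeR adjusted p under 0.05. Txnrd1 has the narrowest bar of the 10, while Gsta2, Chac1 and Gsta1 have the lowest values and wide bars.

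**Figure D4:**
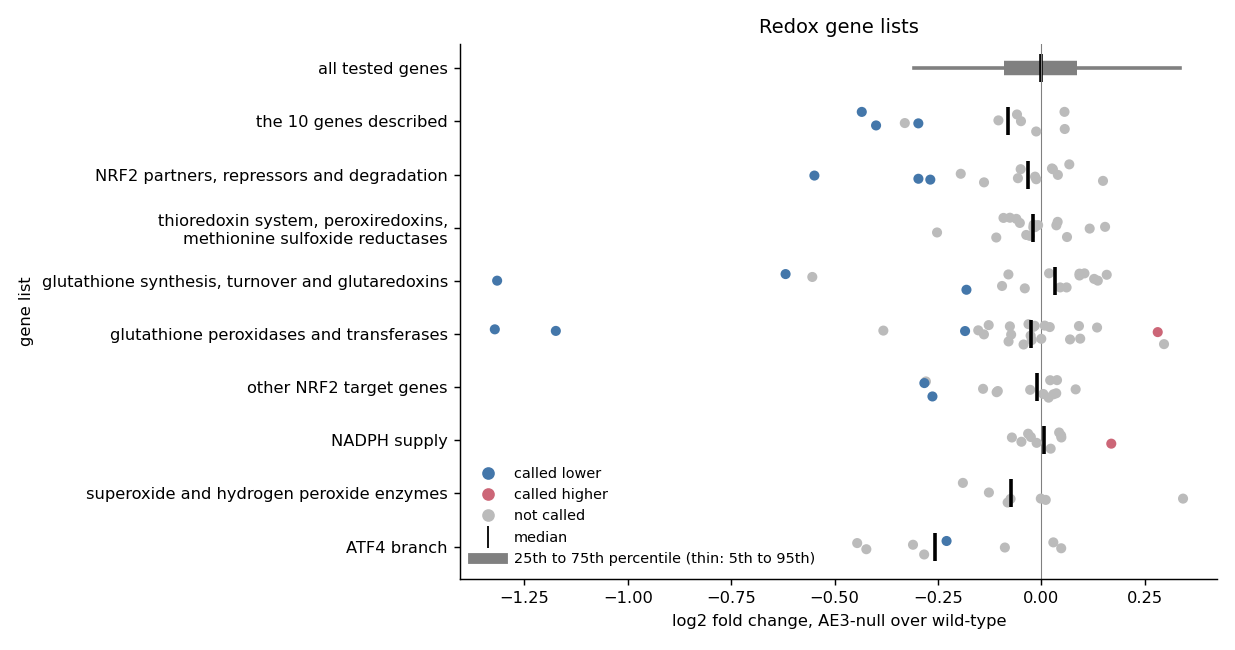
log2 fold change (x axis) of every tested gene of each list (y axis; points spread vertically for legibility), with called genes coloured, the median as a black tick, and the percentiles of all tested genes as a grey bar. Most points of each list lie within the bulk of all genes, and 12 blue and 2 red points stand among the 111 pathway genes.

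Markers of endothelial and atrial cells also differed between the groups. Of 8 endothelial markers 4 fell, and their summed level was 1482 to 1631 CPM in wild-type and 1279 to 1353 CPM in AE3-null libraries. The number called was 2 without AE3-null replicate 1 or 2 and 1, Pecam1, without AE3-null replicate 4. Of 6 atrial muscle markers 5 rose, with sums of 2891 to 3445 and 3842 to 4435 CPM. Red blood cell markers summed to 4057 to 6470 and 2816 to 3926 CPM; edgeR called none of 5, and DESeq2 and limma voom each called 4 lower. Heat shock genes, none of 6 called, summed to 587 to 1642 CPM in wild-type, lowest in replicate 3, and 593 to 762 CPM in AE3-null libraries. Hsp90aa1 was called lower once wild-type replicate 3 was left out. Immediate early genes, none of 8 called, overlapped at 242 to 383 and 231 to 371 CPM. At an unadjusted p under 0.05 in edgeR, 4 red cell, 1 heat shock and 0 immediate early genes differed. Over all 14136 tested genes 2973 did. DESeq2 and limma voom called none of the heat shock and immediate early genes.

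Macrophage sums also overlapped, at 233 to 275 and 244 to 280.0 CPM, with none of 6 called by edgeR (1 at an unadjusted p under 0.05, and 1 called by DESeq2), and so did those of fibroblasts (1438 to 1613 and 1540 to 1582 CPM, 1 of 7 lower; 3 higher and 1 lower without wild-type replicate 3, and 0 called without any other single library) and of smooth muscle and pericytes (662 to 724 and 693 to 808 CPM, 1 of 6 higher). Neutrophil markers stayed at 2.37 to 4.36 CPM and adipocyte markers at 10.5 to 17.1 CPM over all libraries, with no call by edgeR, DESeq2 or limma voom among the 2 and 3 tested, and 0 at an unadjusted p under 0.05. No marker on any of these lists was at 0 in all libraries. The part of these cell types and states in the values of Txnrd1, Srxn1, Gclm and the pathway genes was not tested. Without wild-type replicate 3, which had the lowest heat shock sum, the log2 fold changes of Txnrd1, Srxn1 and Gclm were -0.45, -0.43 and -0.29, and all 3 remained called.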

How the data were processed

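The deposited values are read counts per Entrez gene with no normalization, 1 column per library. The submitters' processing notes name bcl2fastq, CASAVA 1.8, TopHat, DESeq and the build mm9. For the counting, the program, strand setting and annotation were not given in the sources used here. The RefSeq table of GRCm38.p6 named 23185 of 23282 genes and left 97 unmatched.

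Genes were filtered with edgeR's filterByExpr (minimum count 10), scaled by TMM and compared with the quasi-likelihood F test (robust, two-sided, no covariates), with Benjamini-Hochberg adjustment over 14136 genes. Log2 fold changes are AE3-null over wild-type, with SEs from the F statistic. Log2 CPM used an offset of 0.5. On simulated data of this comparison, over 14136 genes, edgeR found 26 of the 50 genes with a 1.25-fold change, 39 of the 50 with 1.5-fold and 46 of the 50 with 2-fold, and called 14 unchanged genes. No library was a copy of another (chi-square of 2.57 to 7.63 per gene between libraries of a genotype).

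The 10 genes and all lists were chosen with earlier results of these data known. Named pathway genes are, per list, up to 4 called genes with the smallest p, or 2 where none was called. Slc4a3 served as the check of labels. Alternatives were RLE or total-count scaling, no or a stricter filter (50), DESeq2, limma voom, no robust moderation, each library left out, the replicate number as a block, and leaving out the 10 most abundant genes. Versions used were DESeq2 1.42.0, limma 3.58.1, edgeR 4.0.16 and R 4.3.3.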

Additional observations from a re-analysis of the deposited data

Results flagged for a closer look

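Gsta2 in wild-type replicate 1 was at 1.67 CPM (27 counts), apart from the other 3 wild-type libraries at 1.97 to 1.98 CPM (29 to 37 counts), a far value within its group. It was 1 of 58 groups of 4 libraries examined, and chance alone gives such a value in about 1 of 20 groups.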

How the results depend on the processing

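The calls of Txnrd1 and Srxn1 stood in all 17 alternatives and that of Gclm in 13, and no other of the 10 genes was called in any. Calls over all genes ranged from 407 to 1727, and calls of pathway genes from 8 to 19, with single libraries left out; the other settings gave 844 to 1002 and 11 to 15. The median log2 fold change of the 10 genes ranged from -0.12 to -0.06 with single libraries left out. Of 304 alternative values of the named pathway genes, 45 lost a call and 6 gained one, and none changed sign. With the replicate number as a block, 1002 genes and 13 pathway genes were called, and Gstt1 and Nadk2 were not. Libraries with the same number correlated in their deviations by 0.307, 0.0128, 0.0968 and 0.0163, and not every library correlated best with its own number, so the numbers were not taken as pairs. Gsta1 and Gsta2 were not tested with the minimum count of 50. Slc7a11 was read with 61 to 133 counts per library, and the part of this depth in its missing call was not tested; Gsta2, read with 6 to 37 counts, was called.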

Other observations

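A pair of further redox genes, picked out after their values were seen, varied more between wild-type libraries than between the genotypes. Txnip, which binds and inhibits thioredoxin, was at 642 CPM in wild-type replicate 3 and at 388 to 481 CPM in the other wild-type libraries, against 351 to 469 CPM in AE3-null libraries. Mgst1, a membrane-bound glutathione transferase, was at 47.7 CPM in wild-type replicate 2 and at 26.7 to 30.2 CPM in the other wild-type libraries, against 20.9 to 29.2 CPM in AE3-null libraries.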
